A study of Mus musculus with 4 samples.

Results

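The peroxisome proliferator-activated receptors (PPARs), the PGC1 coactivators and the receptors and corepressor that work with them were followed in brown adipose tissue (BAT) of mouse fetuses whose mothers drank tap water or fructose water. The set was given by name as 10 genes, namely the PPARs Ppara, Ppard and Pparg, the retinoid X receptors Rxra and Rxrb, the estrogen-related receptors Esrra and Esrrg, the coactivators Ppargc1a and Ppargc1b, and the corepressor Nrip1. Their Ensembl identifiers were found by symbol among the 22298 genes of the count table, and all 10 were among the 12888 genes with enough counts to be tested.

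Bulk RNA-seq was done on BAT collected at E18.5, the end of gestation, from fetuses labelled C57BL/6 (C57BL/6J in the study's methods), 2 libraries per group and 4 libraries in all. Control dams drank tap water and fructose dams drank 20% (w/v) fructose water while pregnant, and neither a genetic change nor any other agent is named for either group. How many fetuses or litters stand behind a library is not given in the sources used here, so the p-values measure only the spread between these libraries. The comparison asks how these regulators were expressed in fetal BAT after maternal fructose intake.

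PPARs are nuclear receptors that bind fatty acids and their derivatives and that act on DNA as heterodimers with a retinoid X receptor. PPAR gamma drives adipocyte formation, PPAR alpha drives fatty acid oxidation, and PPAR delta does the latter in many tissues. PGC1 alpha and PGC1 beta bind PPARs and estrogen-related receptors and raise the transcription of mitochondrial genes, PGC1 alpha being strongly induced by cold in BAT, while the product of Nrip1 (RIP140) binds the same receptors and represses them.

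Between 18542897 and 23645147 reads were counted on genes per library. Levels are given as CPM, counts brought to a common library total with the TMM method, and the floor of 3 counts lay between 0.123 and 0.166 CPM. The 2 libraries of a group differed beyond sampling noise. All 4 libraries are labelled male, but 4 genes of the Y chromosome (Uty, Kdm5d, Ddx3y and Eif2s3y) summed to 422 and 390 counts in the control libraries and to 0 in both fructose libraries, so that fetal sex as read from the RNA and maternal diet cannot be told apart in any result here. Brown adipocyte markers were abundant in every library. Over 15 genes they summed to 15150 and 17870 CPM in control and to 16160 and 14600 CPM in fructose. Of these 15, 2 were called higher and 3 lower. Skeletal muscle markers summed to 267.8 and 372 CPM in control and to 882 and 657.4 CPM in fructose, and all 17 of the 20 listed that had enough counts to be tested were called higher in fructose, Myod1, Pax7 and Myh4 being the others. In bulk tissue, more cells of a type and more RNA per cell cannot be told apart. Hepatocyte markers summed to 674.1 and 298.1 CPM in control and to 461.9 and 482.3 CPM in fructose, nearly all of it from Trf, which encodes transferrin (666.1, 293.9, 459.4 and 480 CPM), while Afp, Apob, Ttr, Fgb and Serpina1a were at 0 in all libraries. Of the 3 hepatocyte markers tested, Cyp2e1 was called lower, at 7.071 and 3.272 CPM in control and 1.503 and 1.306 CPM in fructose. Erythroid markers summed to 19200 and 15290 CPM in control and to 11770 and 12140 CPM in fructose, with 5 of 8 called lower, and 0 of 8 by edgeR after both of the trends described next were removed (1 at an unadjusted p under 0.05). Pan adipocyte markers summed to 17030 and 15360 CPM in control and to 14570 and 14320 CPM in fructose, with 2 of 10 called higher and 5 lower. With both trends removed, edgeR called 1 pan adipocyte marker higher and 1 lower, and 14 skeletal muscle markers higher. It then called 2 brown adipocyte markers higher and 0 lower (1 lower at an unadjusted p under 0.05). Of all tested genes, 15.5% were called higher and 10.7% lower, and 4.15% and 4.96% with both trends removed. The part of these marker shifts in the results was not tested.

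Across all genes, the log2 fold change of fructose against control moved with the length of the transcript (Spearman's rho = 0.501 over 12884 genes) and with its GC content (rho = -0.501). The fold changes of fructose against control were therefore also computed after both trends had been taken out of every library. This left rho at -0.106 for length and -0.0104 for GC content. The levels and the within-library ratios below were computed only with the trends left in. The part of the trends in the fold changes was not tested beyond this removal.

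The study's own primers show which exons of these genes its PCR assays read, and they are given 5′ to 3′, forward then reverse, since the counts are taken over whole genes and do not separate isoforms.
Ppara forward: ccgggaggcgtttcctgag
Ppara reverse: caggccacagagcgctaa
Ppargc1a forward: agccgtgaccactgacaacgag
Ppargc1a reverse: gctgcatggttctgagtgctaag
Pparg forward: ccaagaataccaaagtgcgatca
Pparg reverse: cccacagactcggcactcaat
On GRCm38 (mm10), the Ppara pair matched 1 of 6 annotated transcripts, with a product of 147 bases from exon 1 to exon 3 (chr15:85736054-85777539, forward strand). The Ppargc1a pair matched 4 of 5 transcripts, with a product of 168 bases over exons 3 and 4 (chr5:51495713-51498118, reverse strand). The Pparg pair matched 5 of 7 transcripts with a product of 133 bases (chr6:115440054-115441610, forward strand). For each of these genes, the count reported here thus covers annotated transcripts that its primer pair does not.

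The promoters of 3 members that stayed called higher after both trends were removed are shown next. Among such members, these had the smallest adjusted p in edgeR with the trends left in. Each is given as the 120 bases before the RefSeq start on GRCm38, 5′ to 3′ on the gene's strand. Capitals mark a match to a searched motif.
Ppara chr15:85735656-85735775 (+): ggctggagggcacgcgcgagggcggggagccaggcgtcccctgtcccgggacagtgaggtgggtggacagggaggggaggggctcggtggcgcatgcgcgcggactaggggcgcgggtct
Ppargc1a chr5:51567726-51567845 (-): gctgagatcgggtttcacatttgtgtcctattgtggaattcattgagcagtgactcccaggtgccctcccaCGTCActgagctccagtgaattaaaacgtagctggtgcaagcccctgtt
Esrrg chr1:187608886-187609005 (+): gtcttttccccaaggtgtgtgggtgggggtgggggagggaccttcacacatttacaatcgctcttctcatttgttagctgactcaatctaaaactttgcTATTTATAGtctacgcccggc
In the Ppargc1a promoter the capitals mark TGACG read on the other strand, the core of the cAMP response element that CREB binds, 49 bases before the start. In the promoter of the first of 4 Esrrg starts they mark TATTTATAG, letters of the MEF2 motif, 21 bases before the start. These motifs were chosen after the promoters had been seen. Over the 250 bases before the start, on both strands, TGACG was in 17.8% of 32851 RefSeq promoters and in 3 of 17 member promoters (those of Ppara, Ppargc1a and Rxrb), and TATTTATAG was in 0.408% of all and in 1 of the 17. AAGGTCA, the site of estrogen-related receptors, was in 4.08% of all promoters and in 1 of the 17, at a start of Rxra. The direct repeat of AGGTCA with 1 free base that PPAR and RXR dimers bind was in 0.0335% of all and in 0 of the 17. The 17 promoters belong to 9 members, Ppargc1b not being included. A match is only a match of letters.

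Expressed per kb of the longest transcript, so that genes can be set side by side, the members spanned more than 2 orders of magnitude. Pparg had the highest level in every library, with 159.5 and 153.3 CPM per kb in control and 139.4 and 149.1 in fructose. Esrra came next with 89.55 and 93.37 in control and 78.87 and 72.56 in fructose. In control, Rxrb followed with 40.05 and 44.42, then Ppara with 24.27 and 21.92 and Rxra with 23.06 and 22.45, the last pair overlapping. Ppargc1b (15.92 and 8.69) and Ppard (13.51 and 15.61) overlapped as well, and Ppargc1a (1.07 and 1.16), Nrip1 (0.677 and 0.402) and Esrrg (0.442 and 0.444) formed the low end, the latter pair overlapping.

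In fructose the order differed at the middle of this list. Ppara, with 36.89 and 41.25 CPM per kb, stood above Rxrb, with 33.76 and 32.82. Ppargc1b reached 19.74 and 21.09 and overlapped with Rxra at 21.2 and 19.81, both above Ppard at 11.55 and 12.21. Ppargc1a at 2.203 and 2.766, Esrrg at 1.17 and 1.22 and Nrip1 at 1.04 and 1.14 remained the lowest members.

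**Figure D1:**
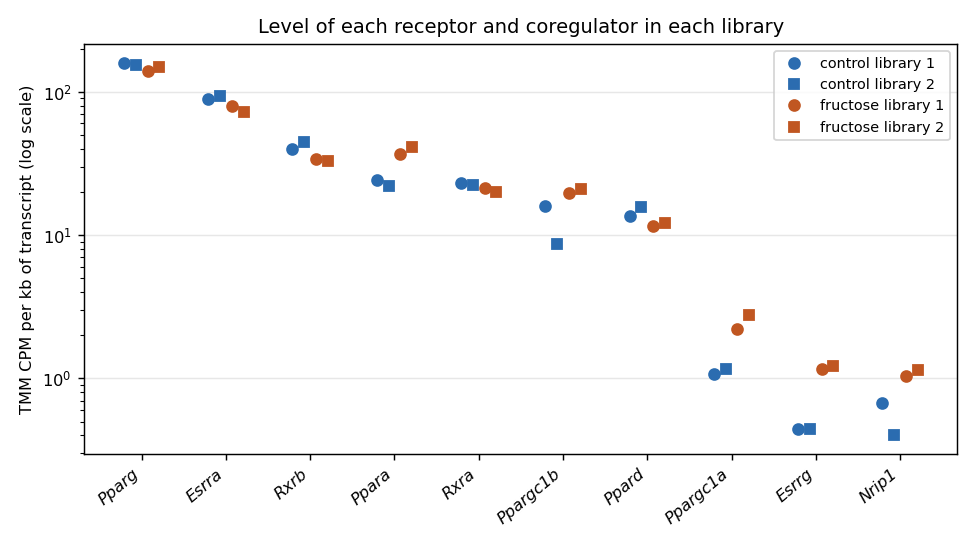
Level of each of the 10 genes in each library as TMM CPM per kb of the longest transcript (vertical, log scale), ordered by mean level, with control libraries in blue and fructose libraries in orange. Ppara passes from 24.27 and 21.92 in control to 36.89 and 41.25 in fructose, while Pparg stays the highest gene in all 4 libraries.

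Of the 10 members, 5 rose and 3 fell. Ppara, Ppargc1a, Ppargc1b, Esrrg and Nrip1 were called higher in fructose, and Ppard, Rxrb and Esrra were called lower, at an adjusted p under 0.05 in edgeR's two-sided quasi-likelihood test. For comparison, 15.5% of all tested genes were called higher and 10.7% were called lower. Pparg and Rxra were not called. The 2 groups did not overlap for any member, with 5 members above and 5 below control, where 33.4% of all tested genes had both fructose libraries above both control libraries and 31.6% had both below. The median log2 fold change of the 10 members was 0.31, and that of all tested genes was 0.0025.

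After both trends were removed, 4 members were called higher (Ppara, Ppargc1a, Ppargc1b and Esrrg) and 0 were called lower, beside 4.15% of all genes higher and 4.96% lower. At an unadjusted p under 0.05 that edgeR fit had 1 member lower, Ppard, and DESeq2 on the counts with the trends left in called 2 members lower at an adjusted p under 0.05. Nrip1 was not called either once both trends were removed.

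Among the PPARs, Ppara, the receptor that drives fatty acid oxidation, showed the largest change. It had 82.85 and 74.8 CPM in control and 125.9 and 140.8 CPM in fructose, so that both fructose libraries were well above both controls. The means were 78.83 ± 5.69 and 133.3 ± 10.5 CPM (SD, n = 2 libraries each). The log2 fold change of Ppara was 0.76 (SE 0.09, 95% CI 0.56 to 0.96), a 1.69-fold rise, with an adjusted p of 0.000348 in edgeR. With both trends removed the log2 fold change was 0.81 (95% CI 0.61 to 1.01, adjusted p = 0.000588 in edgeR). Ppara (chr15:85734983-85802819, forward strand) has a longest transcript of 3413 bases with 51.5% GC.

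Pparg, the receptor that drives adipocyte formation, was not called. It had 338.9 and 325.7 CPM in control and 296.2 and 316.9 CPM in fructose. Both fructose libraries were lower than both controls, with fructose library 2 close to control library 2. Its log2 fold change was -0.12 (SE 0.08, 95% CI -0.30 to 0.063, adjusted p = 0.32 in edgeR). With both trends removed it was 0.046 (95% CI -0.14 to 0.23, adjusted p = 0.791 in edgeR), on the other side of 0. Pparg lies at chr6:115360951-115490399 on the forward strand.

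Ppard, the most widely expressed PPAR, had 50.34 and 58.17 CPM in control and 43.02 and 45.48 CPM in fructose. It fell by 0.29 on the log2 scale (SE 0.10, 95% CI -0.50 to -0.083, adjusted p = 0.0423 in edgeR), which is close to the threshold. The call was lost with both trends removed (log2 fold change -0.25, adjusted p = 0.12 in edgeR) and without control library 2 (-0.19, adjusted p = 0.231). Ppard lies at chr17:28232700-28301474 on the forward strand.

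Within a library, the ratio of members is free of the scaling between libraries, but not of the length and GC trends. The trends were not removed from the ratios. The log2 ratio of Ppara to Pparg per kb was -2.72 and -2.81 in control and -1.92 and -1.85 in fructose, a difference of 0.87. The ratio of Ppard to Pparg was -3.56 and -3.30 in control and -3.59 and -3.61 in fructose, a difference of -0.17, a smaller shift than that of Ppara to Pparg. With 2 libraries against 2, an exact permutation test cannot go below a two-sided p of 0.333, so that the ratios are given as values.

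The retinoid X receptors Rxra and Rxrb, the obligate partners of PPARs, were lower in both fructose libraries than in both controls, with Rxrb past the threshold and Rxra not, and Rxra on the other side of 0 once the GC trend alone was removed. Rxra had 113.1 and 110.1 CPM in control and 104 and 97.16 CPM in fructose, and its log2 fold change of -0.15 was not called (SE 0.08, 95% CI -0.33 to 0.026, adjusted p = 0.191 in edgeR). It was called lower with only the length trend removed (-0.32, adjusted p = 0.022 in edgeR) and its value was 0.012 with only the GC trend removed. Rxrb had 105.2 and 116.7 CPM in control and 88.7 and 86.22 CPM in fructose, and fell by 0.34 on the log2 scale (SE 0.08, 95% CI -0.53 to -0.16, adjusted p = 0.0122 in edgeR). Its value with both trends removed was -0.086 (95% CI -0.27 to 0.099, adjusted p = 0.588 in edgeR). Rxrb has the highest GC content of the members, 61.4%. Rxra lies at chr2:27676440-27762957 and Rxrb at chr17:34031812-34038399, both on the forward strand.

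The third retinoid X receptor, Rxrg, is not among the 10 members, and had 71.82 and 72.53 CPM in control and 57.44 and 56.54 CPM in fructose (log2 fold change -0.34, adjusted p = 0.0105 in edgeR, and -0.10 with both trends removed, adjusted p = 0.491). It is named here because it completes the family. The log2 ratio of Rxra to Rxrb was -0.80 and -0.98 in control and -0.67 and -0.73 in fructose. The log2 ratio of Ppara to Rxra was 0.074 and -0.035 in control and 0.80 and 1.06 in fructose, so that Ppara overlapped with Rxra in control and stood above it in both fructose libraries.

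The estrogen-related receptors, orphan receptors through which PGC1 coactivators act on mitochondrial genes, moved in opposite directions. Esrrg had 2.38 and 2.38 CPM in control and 6.28 and 6.53 CPM in fructose, from 45, 43, 142 and 160 counts. The spread within each group was small beside the distance between the groups. Its log2 fold change was 1.43 (SE 0.22, 95% CI 0.95 to 1.91, adjusted p = 0.00126 in edgeR), a 2.69-fold rise and the largest among the members. With both trends removed it was 0.96 (95% CI 0.50 to 1.42, adjusted p = 0.0171 in edgeR). Esrrg lies at chr1:187608791-188214885 on the forward strand.

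Esrra had 222.9 and 232.4 CPM in control and 196.3 and 180.6 CPM in fructose. It fell by 0.27 on the log2 scale (SE 0.08, 95% CI -0.45 to -0.092, adjusted p = 0.0313 in edgeR). Its call was lost with both trends removed (-0.15, adjusted p = 0.289 in edgeR), without fructose library 1 (adjusted p = 0.0627) and without fructose library 2 (adjusted p = 0.294). Esrra (chr19:6910977-6921813, reverse strand) overlaps Trmt112 on the other strand, which held 389 to 455 counts against 4191 to 4439 of Esrra, and whether strand was used in counting is not given in the sources used here. The log2 ratio of Esrra to Esrrg per kb fell from 7.66 and 7.72 in control to 6.08 and 5.90 in fructose. This difference of -1.70 was the widest of the 7 ratios computed, with Esrra still far above Esrrg in every library. The transcripts differ in length (2489 bases for Esrra, 5373 for Esrrg) and in GC content (50.3% and 42.5%). With both trends removed, the log2 fold changes were -0.15 for Esrra and 0.96 for Esrrg. The part of the trends in the ratio was not tested.

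Both PGC1 coactivators rose. Ppargc1a had 6.91 and 7.49 CPM in control and 14.24 and 17.88 CPM in fructose, from 131, 135, 322 and 438 counts. The means were 7.2 ± 0.405 and 16.06 ± 2.58 CPM (SD, n = 2 libraries each), and the fructose libraries differed more from each other than the controls did. Its log2 fold change was 1.16 (SE 0.16, 95% CI 0.80 to 1.51, adjusted p = 0.000812 in edgeR), a 2.23-fold rise. With both trends removed it was 0.55 (95% CI 0.22 to 0.89, adjusted p = 0.0443 in edgeR). The transcript is 6464 bases long with 41.7% GC, the lowest GC content among the members. Ppargc1a lies at chr5:51454250-51567726 on the reverse strand.

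Ppargc1b was the less even of the pair. It had 58.21 and 31.77 CPM in control and 72.16 and 77.11 CPM in fructose, with control library 2 far below control library 1. Its log2 fold change was 0.73 (SE 0.19, 95% CI 0.31 to 1.15, adjusted p = 0.0168 in edgeR), and 0.85 with both trends removed (adjusted p = 0.0203). The size depended on the control library, being 1.23 without control library 1 and 0.36 without control library 2. DESeq2 did not call it (adjusted p = 0.237). The gene lies at chr18:61298136-61400431 on the reverse strand.

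The log2 ratio of Ppargc1a to Ppargc1b per kb was -3.90 and -2.91 in control and -3.16 and -2.93 in fructose, so the groups overlapped. Ppargc1b was thus the more abundant PGC1 in all 4 libraries. The third gene of the family, Pprc1, had a log2 fold change of -0.39 (SE 0.14, 95% CI -0.70 to -0.086) that was not called (adjusted p = 0.0584 in edgeR), and it is named to complete the family.

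Nrip1, which encodes the corepressor RIP140, had 5.33 and 3.16 CPM in control and 8.18 and 8.98 CPM in fructose, from 101, 57, 185 and 220 counts. Its log2 fold change was 1.01 (SE 0.23, 95% CI 0.51 to 1.51, adjusted p = 0.00857 in edgeR), a 2.02-fold rise. It was 1.44 without control library 1 and 0.69 without control library 2. With both trends removed it was 0.43 (95% CI -0.029 to 0.89, adjusted p = 0.236 in edgeR), and the transcript is the longest among the members, 7868 bases with 43.6% GC. The log2 ratio of Ppargc1a to Nrip1 was 0.66 and 1.53 in control and 1.08 and 1.28 in fructose, so that the ratio of coactivator to corepressor overlapped between the groups. Nrip1 lies at chr16:76287400-76373827 on the reverse strand.

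The members Ppargc1a and Esrrg, and Mef2c and Ckmt2 among the other pathway genes, rose and are also expressed in skeletal muscle. So are genes called lower with the trends left in, such as Esrra and Cox8b. The sum of the muscle markers was higher in both fructose libraries than in both controls. The part of muscle RNA in the changes of these genes was not tested.

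**Figure D2:**
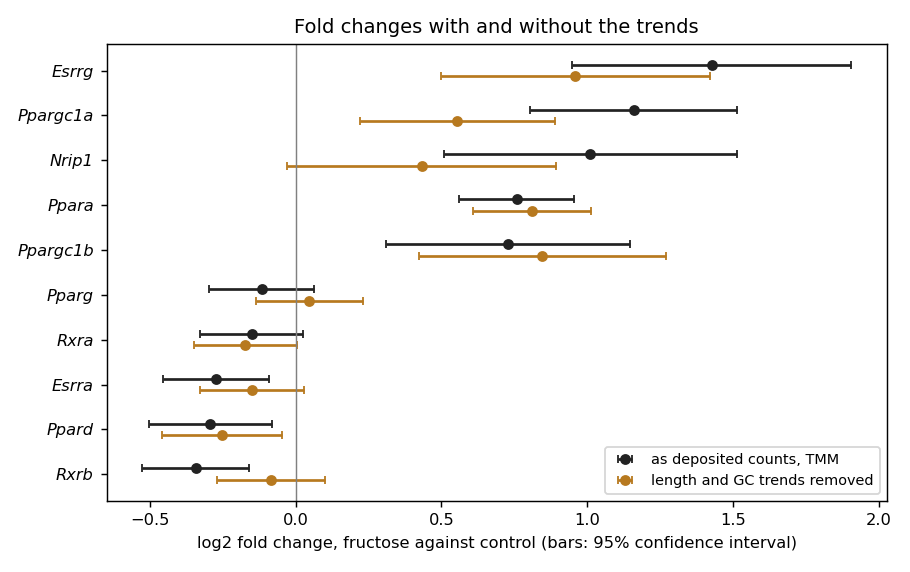
Log2 fold change of fructose against control for each of the 10 genes (horizontal; points with 95% confidence intervals, from 2 libraries per group), from the counts scaled by TMM (black) and with the length and GC trends removed (brown). Ppara is at 0.76 and 0.81, while Ppargc1a goes from 1.16 to 0.55 and the interval of Nrip1 comes to hold 0.

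**Figure D3:**
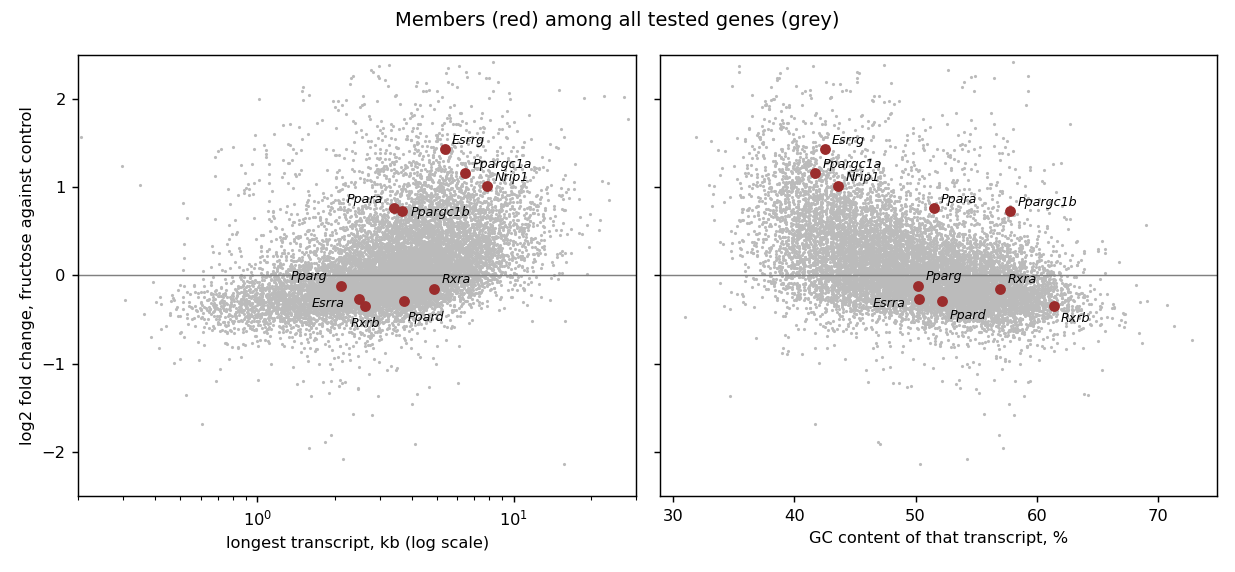
Log2 fold change of fructose against control (vertical, shown from -2.5 to 2.5, with the few genes beyond that range not drawn) against transcript length in kb (left, log scale) and GC content in percent (right), for all tested genes in grey and the 10 genes in red. Esrrg, Ppargc1a and Nrip1 have long transcripts of low GC content (41.7% to 43.6%), and Ppargc1b, at 0.73, has one of 57.8% GC.

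**Figure D4:**
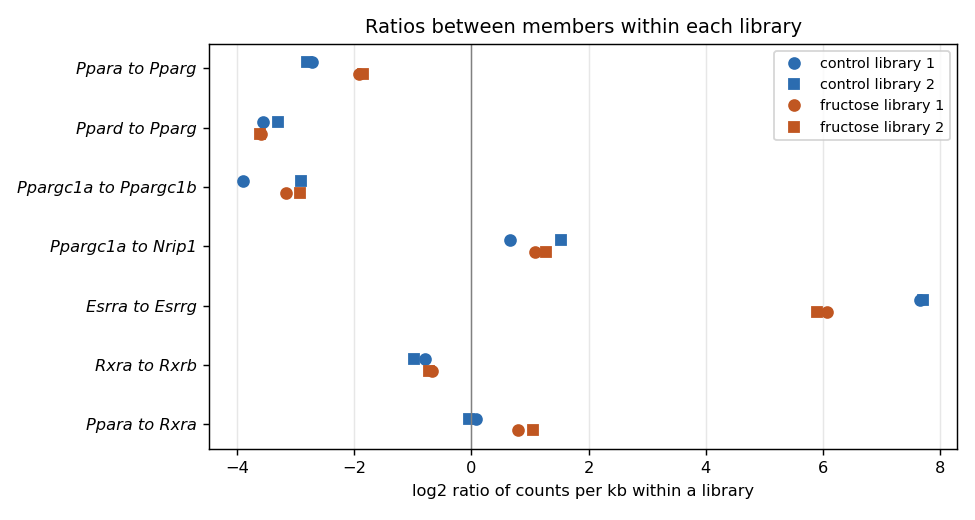
Log2 ratio of counts per kb of a pair of the 10 genes within each library (horizontal), for 7 pairs, with controls in blue and fructose in orange. The groups lie apart for Esrra to Esrrg, Ppara to Pparg and Ppara to Rxra, and by less for Rxra to Rxrb and Ppard to Pparg. They overlap for Ppargc1a to Ppargc1b and Ppargc1a to Nrip1. The length and GC trends were not removed from these ratios.

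The other genes of the pathway were taken from 7 lists and are described by counts, beside 15.5% of all tested genes called higher and 10.7% called lower. The lists share some genes with each other, and that of mitochondrial targets also holds the member Esrra, so their counts are not independent. Of 20 other receptors tested, 4 were called higher and 6 lower (median log2 fold change 0.14), and 2 and 0 after both trends were removed, when 1 was lower at an unadjusted p under 0.05 in edgeR. Without fructose library 1 or fructose library 2, 3 were called lower. Thra, the thyroid hormone receptor alpha and the most abundant of them, had 260.6 and 260 CPM in control and 195.1 and 214.2 CPM in fructose (log2 fold change -0.35, SE 0.08, adjusted p = 0.011 in edgeR). The liver X receptors Nr1h3 (-0.29, adjusted p = 0.0204 in edgeR) and Nr1h2 (-0.46, adjusted p = 0.00235 in edgeR) and Nr2f6 (-0.53, adjusted p = 0.00198 in edgeR) fell as well. None of these 4 was called with both trends removed. The clock receptor Nr1d2 rose from 4.43 and 3.77 CPM to 8.22 and 12.04 CPM (1.31, SE 0.22, adjusted p = 0.00187, and 0.87 with both trends removed, adjusted p = 0.0198 in edgeR). Rora rose by 1.46 on the log2 scale (SE 0.42, adjusted p = 0.0244 in edgeR), and its value with both trends removed was 0.59 (adjusted p = 0.419).

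Of 30 other coregulators, 14 were called higher and 1 lower (median 0.28), which became 3 and 2 (median -0.0073) with both trends removed. The 14 became 9 without fructose library 1 and 8 without fructose library 2, and the 1 called lower was lost without either. Lpin1, a phosphatidate phosphatase that also coactivates PPAR alpha, was the most abundant and rose from 493.5 and 558.8 CPM to 686.5 and 636.4 CPM (0.33, SE 0.09, adjusted p = 0.0211, and 0.13 with both trends removed, adjusted p = 0.425 in edgeR). Sirt1, the deacetylase that acts on PGC1 alpha, went from 3.008 and 1.996 CPM to 5.88 and 6.04 CPM (1.25, SE 0.25, adjusted p = 0.00435, and 0.96 with both trends removed, adjusted p = 0.0256 in edgeR). Med13, a Mediator subunit, rose by 0.95 (adjusted p = 0.00112 in edgeR) and was at 0.073 with both trends removed. Hdac3, the deacetylase of the nuclear receptor corepressor complex, was the gene called lower, from 137.8 and 150.2 CPM to 117.3 and 117.5 CPM (-0.29, SE 0.08, adjusted p = 0.0214, and -0.38 with both trends removed, adjusted p = 0.0159 in edgeR). The smallest rise that was called was that of Tbl1x, a subunit of the same complex (0.29, SE 0.09, adjusted p = 0.0287 in edgeR), which was at -8.5e-05 with both trends removed. The corepressor Ctbp1, with a log2 fold change of -0.18, was not called (adjusted p = 0.103 in edgeR).

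Of 24 regulators known to act upstream of PGC1 alpha, 10 were called higher and 0 lower by edgeR (median 0.35), and 2 and 2 with both trends removed. At an unadjusted p under 0.05, edgeR had 2 of them lower, and DESeq2 called 0 lower after adjustment. The 10 became 6 without fructose library 2. Mef2c, a transcription factor of muscle that binds the MEF2 motif, rose from 7.34 and 5.60 CPM to 13.09 and 15.31 CPM (1.13, SE 0.17, adjusted p = 0.00122, and 0.50 with both trends removed, adjusted p = 0.0608 in edgeR). Sirt1, described above, is also on this list, and the smallest rises that were called were those of Yy1 (0.31, SE 0.08, adjusted p = 0.0189 in edgeR) and Camk2d (0.33, SE 0.11, adjusted p = 0.0398 in edgeR). Neither kept its call once both trends were removed, Yy1 being at 0.085 (adjusted p = 0.591 in edgeR) and Camk2d on the other side of 0 at -0.080 (adjusted p = 0.678 in edgeR). The most abundant of the list were Prkaca, the catalytic subunit of protein kinase A, with a log2 fold change of -0.18 (adjusted p = 0.129 in edgeR), Mef2d with -0.072 (adjusted p = 0.624) and Mapk14 with 0.024 (adjusted p = 0.867).

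Of 15 genes that handle PPAR ligands or retinoids, 1 was called higher and 2 lower (median -0.085), and 2 and 1 with both trends removed. The 1 higher became 2 without control library 1 and 3 without control library 2, and the 2 lower became 1 without control library 1 or fructose library 1 and 0 without fructose library 2. The one that rose was Rbp4, the retinol carrier, from 30.03 and 29.22 CPM to 49.74 and 42.9 CPM (0.64, SE 0.10, adjusted p = 0.00137, and 1.01 with both trends removed, adjusted p = 0.000171 in edgeR). Pnpla2, the lipase that releases fatty acids from triglyceride, fell by 0.34 (SE 0.09, adjusted p = 0.0168 in edgeR), and Dhrs3, a retinal reductase, fell by 0.32 (SE 0.10, adjusted p = 0.0345 in edgeR). Neither was called once both trends were removed, at -0.12 (adjusted p = 0.466 in edgeR) and -0.13 (adjusted p = 0.471 in edgeR). Fabp4, the fatty acid carrier of adipocytes, had 6221 and 5674 CPM in control and 5586 and 5307 CPM in fructose and was not called (-0.13, SE 0.10, adjusted p = 0.361 in edgeR), but was called lower with both trends removed (-0.46, adjusted p = 0.0171). Fabp5 had a log2 fold change of 0.14 (adjusted p = 0.408 in edgeR).

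Of 33 PPAR alpha targets of fatty acid oxidation, 3 were called higher and 7 lower (median -0.14), and 3 and 4 (median -0.11) with both trends removed. The 7 became 11 without control library 1, 4 without fructose library 1 and 2 without fructose library 2, and the 3 became 6 without control library 2. The abundant enzymes Acaa2 (-0.35, SE 0.10, adjusted p = 0.022 in edgeR) and Acadvl (-0.35, SE 0.10, adjusted p = 0.0239 in edgeR) fell, as did Ech1 (-0.52, SE 0.09, adjusted p = 0.00238 in edgeR). None of these 3 was called with both trends removed. Hadha, of the trifunctional protein, was not called (-0.14, SE 0.10, adjusted p = 0.306 in edgeR). Pdk4, a kinase that turns off pyruvate dehydrogenase, rose from 274.5 and 236.8 CPM to 353.5 and 385.5 CPM (0.53, SE 0.09, adjusted p = 0.00248, and 0.38 with both trends removed, adjusted p = 0.0216 in edgeR). Acadsb, an acyl-CoA dehydrogenase, rose by 0.89 (SE 0.10, adjusted p = 0.000255, and 0.38 with both trends removed, adjusted p = 0.0271 in edgeR). Acot1, an acyl-CoA thioesterase, fell by 0.68 (SE 0.19, adjusted p = 0.022, and was at -0.66 with both trends removed, adjusted p = 0.046 in edgeR).

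Of 29 PPAR gamma targets of adipocytes, 6 were called higher and 8 lower (median -0.13), and 5 and 1 (median 0.026) with both trends removed. The 8 became 3 without fructose library 1 and 1 without fructose library 2. Scd1, the stearoyl-CoA desaturase, had 6361 and 3747 CPM in control and 11990 and 9090 CPM in fructose (1.06, SE 0.20, adjusted p = 0.00359, and 0.86 with both trends removed, adjusted p = 0.0261 in edgeR). Insr, the insulin receptor, rose by 0.79 (SE 0.09, adjusted p = 0.00034 in edgeR), and its value with both trends removed was 0.27 (adjusted p = 0.0835). Cebpa, the adipogenic partner of PPAR gamma, fell by 0.38 (SE 0.09, adjusted p = 0.0093 in edgeR), and Cfd, which encodes adipsin, fell by 0.56 (SE 0.19, adjusted p = 0.0495 in edgeR) with control library 1 well above the other 3 libraries (1310 CPM against 658.6 to 737.2). Neither was called with both trends removed. Gpd1 had a log2 fold change of -0.18 (adjusted p = 0.27 in edgeR), and Ucp1, the uncoupling protein of BAT, had 9705 and 12420 CPM in control and 11000 and 9606 CPM in fructose (-0.10, SE 0.13, 95% CI -0.38 to 0.18, adjusted p = 0.587 in edgeR), the groups overlapping.

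Of 38 genes listed as mitochondrial targets of PGC1 and estrogen-related receptors, 5 were called higher and 13 lower (median -0.20), and 4 and 1 (median -0.078) with both trends removed. The list also holds genes that do not encode mitochondrial proteins, such as the member Esrra, which is counted among the 13. The 13 became 6 without fructose library 1 and 1 without fructose library 2. Uqcrc1 (-0.42, SE 0.09, adjusted p = 0.00766 in edgeR), Cox8b (-0.44, SE 0.10, adjusted p = 0.00987 in edgeR) and Atp5b (-0.32, SE 0.11, adjusted p = 0.0414 in edgeR), of respiratory complexes III, IV and V, fell, and none of the 3 was called with both trends removed. Cs, the citrate synthase, was not called (-0.23, SE 0.10, adjusted p = 0.102 in edgeR). Ckmt2, the mitochondrial creatine kinase of striated muscle, rose from 1.64 and 2.05 CPM to 5.53 and 5.23 CPM (1.54, SE 0.25, adjusted p = 0.00152, and 1.79 with both trends removed, adjusted p = 0.00126 in edgeR). Gabpa, a transcription factor of nuclear-encoded mitochondrial genes, rose by 0.81 (SE 0.12, adjusted p = 0.0012 in edgeR) and was at 0.32 with both trends removed (adjusted p = 0.0847). The share of counts on mitochondrially encoded genes was 5.89% and 6.49% for the control libraries against 10.75% and 11.22% for the fructose libraries. The members kept 5 calls of higher and 3 of lower when those genes and haemoglobin were left out of library sizes.

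**Figure D5:**
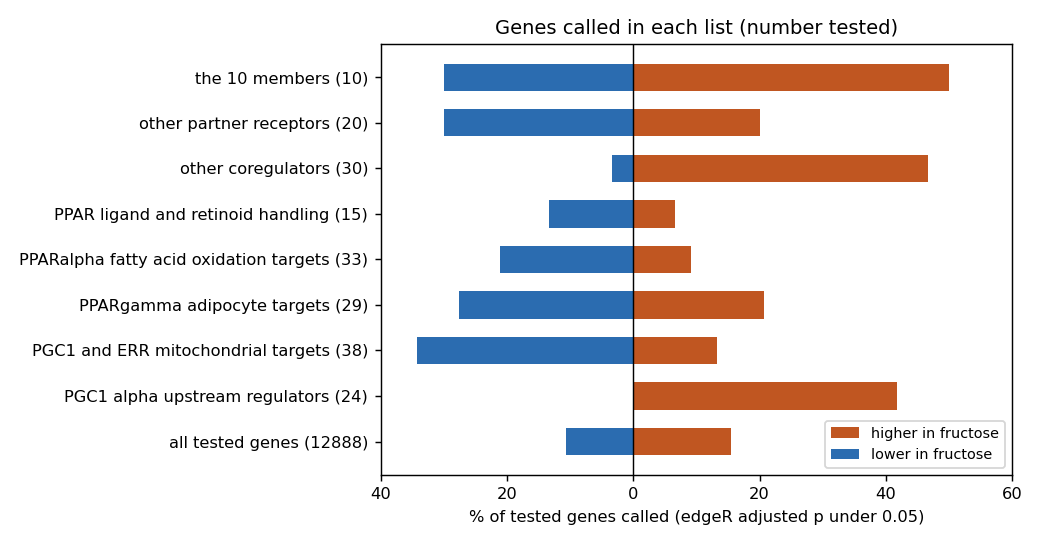
Percent of tested genes called higher (right, orange) and lower (left, blue) in fructose, at an adjusted p under 0.05 in edgeR, for the 10 genes, the 7 other lists and all tested genes, with the number tested in brackets. Other coregulators and PGC1 alpha upstream regulators have 46.7% and 41.7% called higher, beside 15.5% of all genes, and the mitochondrial targets have 34.2% called lower, beside 10.7% of all genes. The trends are left in. With both trends removed, 3 of 30 and 2 of 24 were called higher, beside 4.15% of all genes. Of the 38 mitochondrial targets, 1 was then called lower, beside 4.96% of all genes.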

How the data were processed

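RNA-seq was analysed in 4 libraries of fetal BAT, 2 control and 2 fructose, grouped by the sample titles. Per the labels and the study's methods, the authors filtered reads with fastp and mapped them to mm10 with Bowtie2 2.0.0.5 and TopHat2 2.0.0. They assembled transcripts with StringTie 2.2.0, merged the assemblies with Cuffmerge and took gene counts from the merged file. The deposited counts are raw, without normalization or pooling, and the 4 tables of separate libraries equal the table of all libraries. The counting tool, its use of strand and its treatment of reads that match several genes are not given in the sources used here.

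Symbols, coordinates, transcript lengths and GC content came from GENCODE vM21 (GRCm38), in which 43 of 22298 identifiers had no match. Genes kept by filterByExpr were tested with edgeR 4.0.16 in R 4.3.3 (TMM, quasi-likelihood, two-sided, no covariate, Benjamini-Hochberg over all 12888 genes, call at an adjusted p under 0.05). SE is the log2 fold change over the square root of F. For trend removal, a lowess curve (span 0.3) of each library against transcript length, then GC content, was entered as an offset. Total counts ranged from 18542897 to 23645147, and the common dispersion gave a coefficient of variation of 8.52% between libraries of a group. Floors cover counting error only.

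The members, the lists of pathway and marker genes and the tests were chosen with earlier results of these data known. Named are the 10 members, and in each pathway list the 3 most abundant genes and the 2 highest and 2 lowest log2 fold changes among called genes; Rxrg and Pprc1 were added to complete their families. A gene that this rule selects is not reported here. Same-numbered libraries did not deviate together (correlation -0.0266 over genes). Alternatives were DESeq2 1.42.0, other scalings and filters, a block for replicate number, removal of each trend, and each library left out. Scripts were tested on simulated data. Promoters are from RefSeq (GRCm38.p6), and primer sequences from the study's primer table. The study's qRT-PCR values were not used here.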

Additional observations from a re-analysis of the deposited data

How the results depend on the processing

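Ppara, Ppargc1a and Esrrg kept their direction and their call under each of the 16 alternatives, with log2 fold changes of 0.68 to 0.84, 0.55 to 1.32 and 0.96 to 1.49. Ppargc1b lost its call in 2, Nrip1 in 3, Rxrb in 5, Esrra in 7 and Ppard in 9, without a change of direction. Pparg turned to 0.0083 with the length trend removed, 0.046 with both trends removed and 0.045 with both trends removed and the replicate block, and Rxra turned to 0.012 with the GC trend removed. The cause of these changes was not tested.

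The 3 members called lower became 1 with scaling by library size only, which moved the median log2 fold change of all genes to 0.063, 1 with the GC trend removed, 0 with both trends removed, with or without the replicate block, and 0 in DESeq2 at the study's thresholds (an unadjusted p under 0.05 and a fold above 1.3), which asks for a larger fold. Leaving out 1 library gave 0 to 3 (0 without fructose library 2 and 1 without fructose library 1), with the lone library assumed to vary like the other group. Members called higher stayed at 4 or 5.

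Over all genes, 2001 higher and 1379 lower became 1154 higher with the length trend removed, 1091 higher with the GC trend removed, 535 and 639 with both removed, 694 and 704 with both removed and the replicate block, 859 lower by library size only, and 744 lower in DESeq2 at the study's thresholds. Leaving out 1 library gave 1207 to 2225 higher and 485 to 1700 lower, the lowest of each without fructose library 2. The replicate block alone gave 2117 and 1441 genes and 5 and 3 members, and changed no member's call; the numbers did not pair the libraries (correlation -0.0266). Depth limited Esrrg and Nrip1 most, with 43 and 57 counts in their lowest libraries.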
